A study of Caenorhabditis elegans with 2 samples.

Results

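The microRNA genes of Caenorhabditis elegans were examined for binding of PHA-4 close to their annotated starts. The genes were those of the Ensembl release 115 annotation whose symbol starts with mir- or is let-7, lin-4 or lsy-6, and there were 261 of them among 46926 annotated genes. Each gene was represented by a window from 1000 bp upstream to 500 bp downstream of its start, and a gene was counted when the summit of a deposited peak lay in its window. Of the 261 genes, 260 were annotated as microRNAs, and mir-1831 was annotated as a small nuclear RNA. For most members the annotated gene was about the length of a precursor hairpin (median 95 bp), so its start is not that of the primary transcript. The exceptions were 3 genes longer than 200 bp, among them let-7 with 1732 bp. There were 33 members on chromosome I, 50 on II, 27 on III, 50 on IV, 28 on V and 73 on X.

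The measurement was chromatin immunoprecipitation with sequencing (ChIP-seq) in whole late embryos of mixed sex. The strain OP37 carries unc-119(ed3) on chromosome III and the insertion wgIs37, from which PHA-4 fused to eGFP is made, and both biological replicates have this genotype. There was 1 group with 2 replicates and no second genotype, stage or treatment, so the replicates were set beside each other and the microRNA genes beside other genes. The regulatory sequence that drives the tagged copy and the number of animals per library are not stated in the material used here, and all cell types of the embryo were in each library.

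PHA-4 is a forkhead transcription factor of the FoxA type that gives the cells of the pharynx (the muscular feeding tube) their identity, and it also acts in the intestine and in adult physiology. MicroRNA genes are transcribed mostly by RNA polymerase II into primary transcripts, from which a hairpin is cut and processed into a mature RNA that represses messenger RNAs through base pairing of its seed, the bases 2 to 8. In the worm the let-7 and lin-4 microRNAs time larval development, the mir-35 family is needed for embryogenesis, and the mir-51 family is needed for attachment of the pharynx in the embryo.

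The mature sequences of the mir-51 family are shown because every gene of this seed had a replicate 1 summit. They are RefSeq sequences in WBcel235, 5′ to 3′, with the seed in capitals.
mir-51 (chrIV:11026074-11026096, minus strand): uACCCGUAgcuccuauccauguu
mir-52 (chrIV:14034024-14034047, plus strand): cACCCGUAcauauguuuccgugcu
mir-53 (chrIV:11027653-11027676, minus strand): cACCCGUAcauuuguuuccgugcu
mir-54 (chrX:13145011-13145034, minus strand): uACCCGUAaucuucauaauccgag
mir-55 (chrX:13144842-13144864, minus strand): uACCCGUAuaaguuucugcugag
mir-56 (chrX:13144706-13144727, minus strand): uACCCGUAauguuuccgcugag

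The next mature sequences, written in the same way, belong to mir-58a and 3 genes with a closely related 5′ end, to the pair mir-73 and mir-74, and to let-7. They are shown because strong summits lay in the windows of mir-58a, mir-73 and mir-74, and beyond the windows of mir-81, mir-82 and let-7.
mir-58a (chrIV:3233314-3233335, plus strand): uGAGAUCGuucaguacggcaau
mir-80 (chrIII:8865285-8865307, minus strand): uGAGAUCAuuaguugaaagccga
mir-81 (chrX:2431138-2431159, plus strand): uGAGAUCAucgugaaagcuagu
mir-82 (chrX:2435273-2435294, minus strand): uGAGAUCAucgugaaagccagu
mir-73 (chrX:2368826-2368848, plus strand): uGGCAAGAuguaggcaguucagu
mir-74 (chrX:2369103-2369124, plus strand): uGGCAAGAaauggcagucuaca
let-7 (chrX:14744234-14744255, minus strand): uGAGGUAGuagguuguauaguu

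The genome sequence around 7 strong replicate 1 summits follows, with 75 bases to each side of the summit, on the plus strand of WBcel235. They were picked to show the mir-51 family loci, other strong microRNA summits and the peak beyond let-7, and are not a ranking. The summits of mir-1 and mir-354, which ranked above those of mir-52 and mir-51, are not shown, and neither had a consensus match within 100 bp. Capitals mark matches to the PHA-4 consensus TRTTKRY (R is A or G, K is G or T, Y is C or T) on either strand, and a match to the minus strand therefore appears in its complementary form.
summit of mir-54, mir-55 and mir-56 (chrX:13145408-13145558): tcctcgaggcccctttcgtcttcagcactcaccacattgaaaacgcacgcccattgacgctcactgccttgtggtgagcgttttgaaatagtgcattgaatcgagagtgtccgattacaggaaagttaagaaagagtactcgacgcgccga
summit of mir-51 (chrIV:11026068-11026218): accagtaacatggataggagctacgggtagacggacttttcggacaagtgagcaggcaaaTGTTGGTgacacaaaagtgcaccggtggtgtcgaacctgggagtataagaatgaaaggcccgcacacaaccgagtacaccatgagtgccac
outermost summit of mir-52 (chrIV:14032936-14033086): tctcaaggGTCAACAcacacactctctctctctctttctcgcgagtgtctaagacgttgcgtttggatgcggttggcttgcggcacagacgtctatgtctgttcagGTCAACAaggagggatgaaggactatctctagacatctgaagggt
summit of mir-73 and mir-74 (chrX:2368601-2368751): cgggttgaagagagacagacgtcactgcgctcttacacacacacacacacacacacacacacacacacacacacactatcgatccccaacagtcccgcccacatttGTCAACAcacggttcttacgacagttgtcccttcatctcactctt
summit of mir-58a (chrIV:3233494-3233644): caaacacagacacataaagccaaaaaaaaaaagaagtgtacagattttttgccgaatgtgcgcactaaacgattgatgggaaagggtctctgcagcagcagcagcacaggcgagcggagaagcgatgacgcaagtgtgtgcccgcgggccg
summit of mir-5595 (chrII:14399623-14399773): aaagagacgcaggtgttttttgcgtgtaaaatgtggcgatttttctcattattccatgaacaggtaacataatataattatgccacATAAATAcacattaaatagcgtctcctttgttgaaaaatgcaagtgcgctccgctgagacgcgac
summit beyond the let-7 window (chrX:14747093-14747243): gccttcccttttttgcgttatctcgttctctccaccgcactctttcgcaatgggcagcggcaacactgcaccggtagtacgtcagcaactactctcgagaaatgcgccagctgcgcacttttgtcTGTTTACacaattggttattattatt

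In replicate 1, 50 of the 261 microRNA genes had a summit in the window, 19.2% with an exact 95% Clopper-Pearson interval of 14.6 to 24.5%. Over all annotated genes the same count gave 10.7%. The 50 genes drew on 49 distinct peaks at 38 clusters or single genes, a cluster being a run of genes whose starts are within 10 kb of the next. In replicate 2, 4 of 261 genes had a summit, 1.53% (0.419 to 3.88%), and the share over all genes was 2.32%. In the pooled list, called on both replicates together, 65 genes had a summit, 24.9% (19.8 to 30.6%), against 13.2% over all genes. The microRNA share was thus above the background of all genes in replicate 1 and in the pooled list, and below it in replicate 2, where its interval takes in the background.

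By gene class in replicate 1, protein-coding genes had a summit in 12.8% of windows, tRNA genes in 30.1%, snoRNA genes in 30.4%, other noncoding RNA genes in 17.1% and piRNA genes in 4.44%. The piRNA genes are 15363 of the 46926 annotated genes, so they lower the share over all genes that serves as background. The microRNA share of 19.2% therefore stood between those of protein-coding and of tRNA genes, and the interval for other noncoding RNA genes (16.3 to 18.0%) lay within that for microRNA genes. In replicate 2, protein-coding windows were at 2.67% and tRNA windows at 5.99%. The microRNA windows of replicate 2 gave the lowest share among these classes, but rested on 4 genes, and the value for piRNA genes was 1.56%. The windows overlap in clusters, and merging them into 220 separate regions left 40 with a replicate 1 summit, 18.2%.

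**Figure D1:**
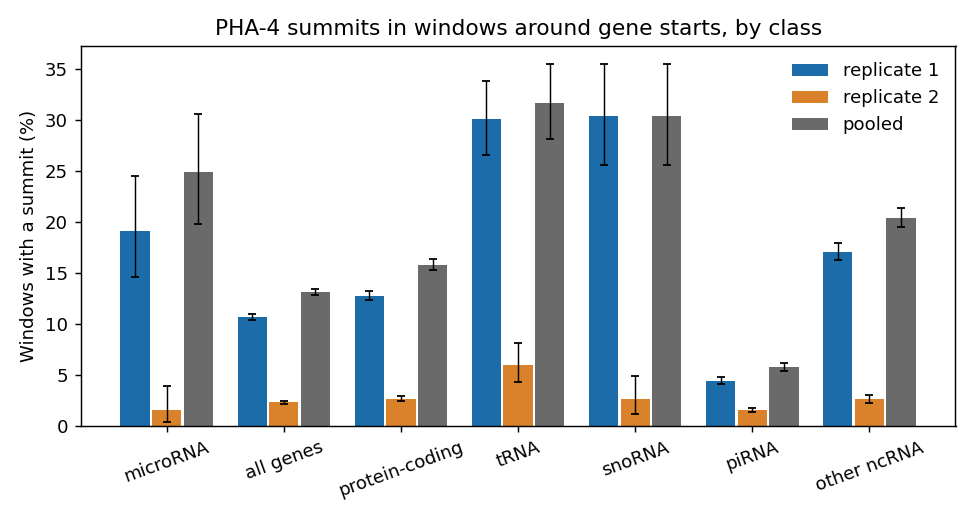
Share of gene windows (%) with a peak summit by gene class, for replicate 1, replicate 2 and the pooled list, with bars from 0 and exact 95% Clopper-Pearson intervals for the counting of windows. MicroRNA windows stood at 19.2%, 1.53% and 24.9%, and those of all genes at 10.7%, 2.32% and 13.2%.

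Limited to the strongest 1000 peaks of each list by the authors' signal, 13 microRNA genes had a summit in replicate 1, against 2.62% of all genes. These were 4.98% of the 261 genes (2.68 to 8.37%). Among the 13, mir-54, mir-55 and mir-56 shared a peak, as did mir-73 and mir-74, and the interval counts them as independent genes. Its lower end is close to the share over all genes, so the difference is uncertain. In replicate 2 there were 3, or 1.15%, against 1.28% of all genes, and in the pooled list 14, or 5.36%, against 2.61%. No microRNA gene had a summit of the final list selected by the irreproducible discovery rate (IDR), which held 9 peaks and reached 0.017% of all gene windows. A count of 0 in 261 windows allows a share of up to 1.40% at the upper end of the exact interval.

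The replicates rarely shared microRNA genes. A summit from both replicates lay in the window of 1 gene, mir-71, which is 0.383% of the microRNA genes (0.00970 to 2.12%), against 0.428% of all genes. None of the 49 replicate 1 peaks in microRNA windows was overlapped by a replicate 2 peak, and over the whole replicate 1 list 91 of 5607 peaks, 1.62%, were. Of the 50 genes with a replicate 1 summit, 46 also had a pooled summit and 4 did not. A further 19 genes had a pooled summit and none from either replicate, and 189 had no summit in any list. The pooled list contains the reads of replicate 1, so it is no independent support for its peaks.

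The peaks of the replicates also differed in the authors' statistics. In replicate 1 the signal of peaks in microRNA windows had a median of 3.21 and ran from 2.01 to 13.4, where the whole list had a median of 2.995 and reached 58.8. Of these 49 peaks, 47 (95.9%) had a deposited q of 0.05 or less, as did 93.6% of the list. In replicate 2 the 4 microRNA peaks had signals of 2.09 to 3.01 and q values of 0.408 to 0.826, and no peak of that list reached 0.05. In the pooled list 15 of 63 microRNA peaks (23.8%) reached it, against 17.1% of the list. How signals were scaled from one library to the next is not given, so signals are compared within a list.

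The mir-51 family had summits at all 6 of its genes in replicate 1 and in the pooled list, and at none in replicate 2. The genes lie at 3 separate loci on 2 chromosomes, and 8 distinct replicate 1 peaks served them, 6 of which were among the strongest 1000. Peaks at mir-52 that overlap each other are counted separately here. In the pooled list 7 distinct peaks lay in their windows, and 6 had a q of 0.05 or less. The nearest replicate 2 summit to a gene of the family was between 30216 and 59979 bp away. Leaving the family out, 44 of 255 microRNA genes had a replicate 1 summit, 17.3%.

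At mir-54, mir-55 and mir-56 on chromosome X, a hairpin run on the strand opposite to F09A5.3 and within its intron, 1 peak lay at -389, -559 and -696 bp from the respective starts. It was the strongest microRNA peak of replicate 1, with a signal of 13.4 and rank 72, and in the pooled list its signal was 11.6 with rank 121. A weaker pooled summit with a signal of 4.65 and no replicate counterpart lay downstream, at 452 bp of mir-55 and 315 bp of mir-56. The 3 hairpins thus shared a summit upstream of the first of them. The gene mir-55b, annotated on the opposite strand over mir-55 and with another seed, had only that weaker pooled summit in its window.

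At mir-52 on chromosome IV, which lies between protein-coding genes, 5 replicate 1 summits fell in the window, the most of any microRNA gene. From upstream to downstream they lay at -997, -495, -283, -60 and 143 bp, with signals of 8.47, 6.72, 4.52, 6.17 and 7.64. Replicate 1 peaks were all 344 bp wide, and those with summits from -495 to 143 bp overlapped in a chain (chrIV:14033341-14034322). They may therefore be parts of a single enriched stretch. The pooled list kept 3 summits there, at -997, -495 and 143 bp, with signals of 9.09, 7.10 and 11.9. The summits flanked the hairpin on both sides, and the strongest one was upstream in replicate 1 and downstream in the pooled list.

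At mir-51 and mir-53, also on chromosome IV and between protein-coding genes, the peak of mir-51 lay at -31 bp with a signal of 8.12 (rank 358), and at 8.15 in the pooled list. The peak of mir-53 lay at 1 bp with a signal of 4.37 (rank 1421), and in the pooled list at 6 bp with a signal of 5.95. Both summits were thus at the edge of the annotated hairpin, and none of the family's 8 peaks lay in the promoter window of a protein-coding gene.

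**Figure D2:**
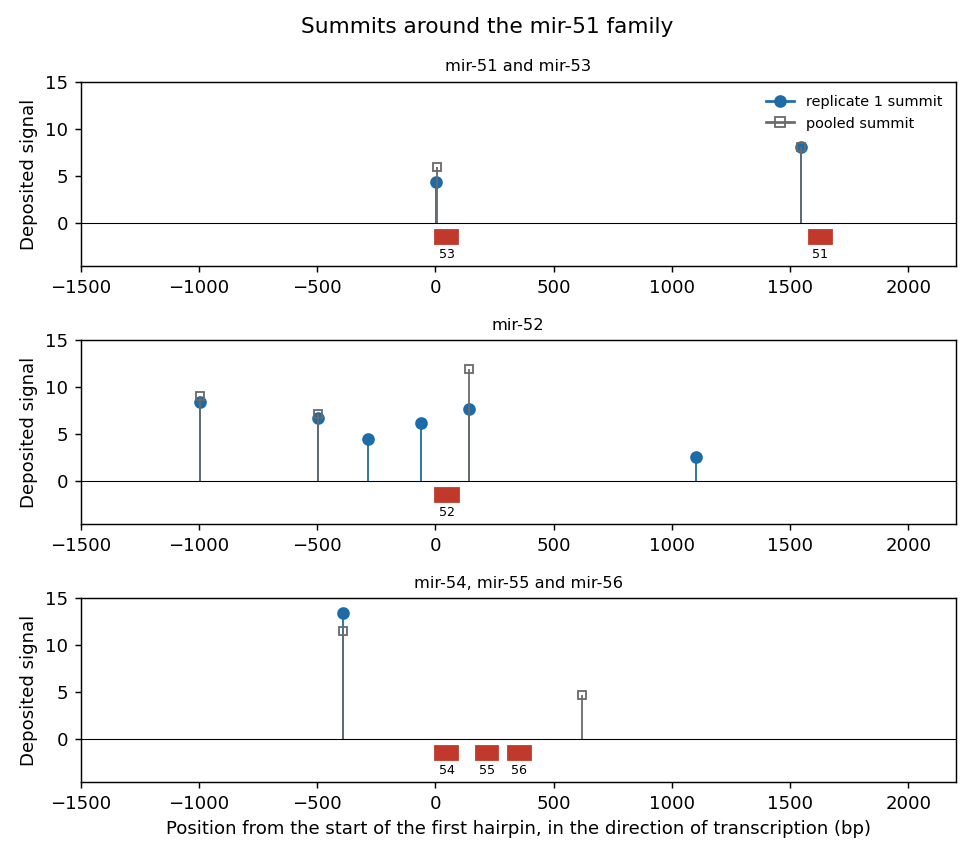
Deposited signal of replicate 1 and pooled summits around the hairpins (red boxes) of the mir-51 family, by distance in bp from the start of the first hairpin of each locus in the direction of transcription. No replicate 2 summit lay within these ranges, and mir-52 had 5 replicate 1 summits in its window.

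The remaining strong microRNA peaks of replicate 1 were spread over unrelated genes. The window of mir-58a, an abundant microRNA related to bantam of flies and annotated in an intron of Y67D8A.2, held a summit at 315 bp, past the end of the hairpin, with a signal of 12.4 (rank 94), and the pooled list placed the same summit at 10.9 (rank 153). The pair mir-73 and mir-74, between protein-coding genes on chromosome X, shared a summit at -89 and -367 bp with a signal of 11.1 (rank 133). In the pooled list 2 summits took its place, at -207 and 23 bp from mir-73, with signals of 10.9 and 10.7. At mir-5595, on the strand opposite to nurf-1, a chromatin remodelling gene, the summit lay at -69 bp with signals of 10.9 in replicate 1 and 11.0 in the pooled list. None of these genes had a replicate 2 summit in its window.

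The muscle microRNA gene mir-1 had a replicate 1 summit at -422 bp with a signal of 9.51 (rank 240) and a second at -632 bp with a signal of 2.01, the weakest in a microRNA window. Its pooled summits were at -390 bp with a signal of 9.05 and at -600 bp with a signal of 2.23. A stronger replicate 1 summit with a signal of 11.7 (rank 105) lay at -2455 bp, beyond the window and in the promoter window of T09B4.3. At mir-238, whose loss is known to shorten adult life, the summits at -109 and -693 bp had signals of 6.19 and 3.21, and the pooled values were 4.65 and 2.89. The gene had 2 summits in each of these lists and none in replicate 2.

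Some summits in microRNA windows lay in the promoter window of a protein-coding gene as well. The summit of mir-354, at -835 bp with a signal of 8.91, was also in the windows of its host rps-20, a ribosomal protein gene, and of ekl-4. That of mir-5549, at -54 bp with a signal of 7.18, was in the windows of the translation elongation factor gene eef-1A.1 and of rfc-4, and that of mir-353, at -973 bp with a signal of 4.23, in those of the ribosomal protein genes rps-10 and rpl-24.1. Pooled signals were 8.33, 6.86 and 9.02 in that order. For such summits the promoter of the coding gene and that of the microRNA cannot be told apart. Of the 13 microRNA genes with a summit among the strongest 1000, 2 had every such summit in a protein-coding promoter window, namely mir-354 and mir-5549, and 11 had none there. Over all 50 genes the number with every summit there was 14, so that 36 remained without those summits.

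**Figure D3:**
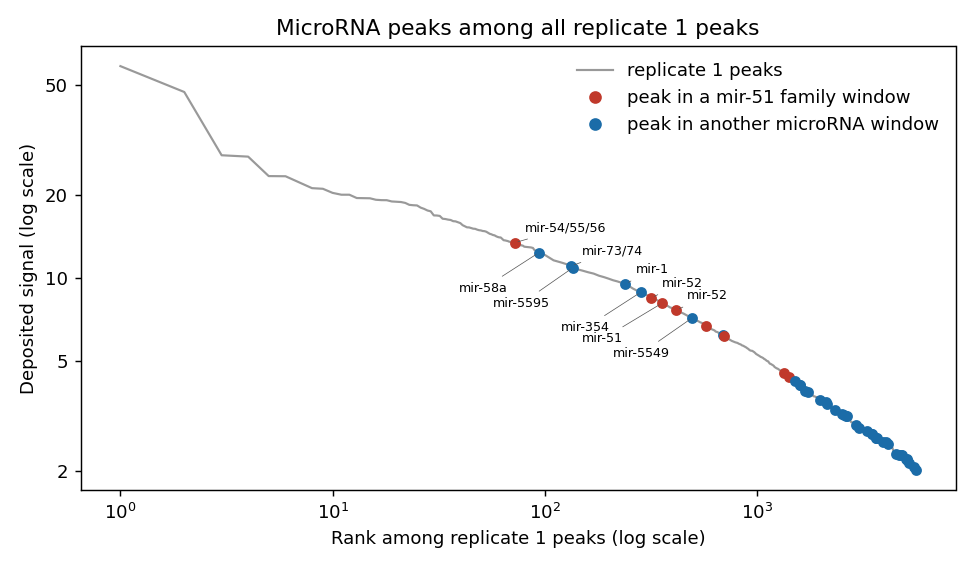
Deposited signal against rank for the replicate 1 peaks (both axes logarithmic, every rank to 100, then thinned), with the 49 peaks in microRNA windows as points and those of the mir-51 family in red. The strongest microRNA peak, shared by mir-54, mir-55 and mir-56, had a signal of 13.4 at rank 72, and the strongest peak of the list a signal of 58.8.

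The 4 genes of replicate 2 were mir-2953, mir-71, mir-57 and mir-272. The summit of mir-2953 lay at -634 bp with a signal of 3.01 and a q of 0.408, in the promoter windows of ins-14 and F41G3.5. Those of mir-57, which acts in posterior patterning of the embryo, and of mir-272 lay at -694 and -865 bp with signals of 2.24 and 2.09. None of these 3 genes had a replicate 1 or pooled summit in its window.

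At mir-71, which promotes long life and starvation survival in the worm and is annotated in an intron of ppfr-1, the replicate 1 summit lay at -293 bp with a signal of 2.86 (rank 3034) and a q of 0.00478. The replicate 2 summit lay at 397 bp with a signal of 2.51 (rank 650) and a q of 0.521. The pooled summit was at -460 bp with a signal of 4.65. The replicate summits were thus 690 bp apart, on opposite sides of the gene start, and a gap of 223 bp separated the peaks. The window counted for both replicates, but the binding positions called were different ones.

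Grouped by seed, 16 seeds were shared by at least 3 members. The mir-51 family was the only one of these with a replicate 1 summit at every gene, 7 had one at some genes and 8 at none. The families differ in how far their genes share peaks, so that the counts of genes within a cluster are not independent.

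Of the mir-35 family, 4 of 8 genes had a replicate 1 summit, all from 1 peak with a signal of 2.72 (rank 3502) and a pooled signal of 2.28. It lay at -536 bp of mir-35, -641 bp of mir-36, -761 bp of mir-37 and -861 bp of mir-38. For mir-39, mir-40 and mir-41, which follow in the same run, the same summit lay at -1017, -1112 and -1236 bp and so just outside the windows. The last gene, mir-42, stands at another locus and its nearest replicate 1 summit was 14012 bp away. The count of 4 is thus set by the window length, and the signal was below the median of the list. Beyond the windows, stronger replicate 1 summits lay at -2606 and -2815 bp of mir-35, with signals of 4.62 and 4.13. Both were in the promoter window of Y62F5A.12. A weaker summit lay at -1592 bp with a signal of 2.06.

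The seed AUGACAC was carried by 5 genes, of which mir-229, mir-64, mir-65 and mir-66, in an intron of the translation regulator gene gcn-1, shared 1 peak with a signal of 3.31 at -273 bp of mir-229 (pooled 5.26), and mir-63 had none. The seed of mir-73 and mir-74 was carried by 6 genes, and the other 4 (mir-72, mir-266, mir-8187 and mir-8188) had no summit. One of 3 genes had a summit in the families of mir-238, mir-87, mir-90 and mir-789-1. Among these families of 3 or more, only the mir-51 family had replicate 1 summits at genes of more than 1 cluster.

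The seed GAGAUCA of mir-80, mir-81 and mir-82 was carried by 6 genes, none with a summit in any list, whereas mir-58a, with the seed GAGAUCG, had the strong summit described above. Strong peaks nevertheless lay near mir-81 and mir-82, which are transcribed towards each other within the gid-2 locus. The replicate 1 summit with a signal of 10.8 (rank 137) lay at 1630 bp of mir-81 and 2652 bp of mir-82, and one with a signal of 8.02 (rank 368) at 2883 and 1399 bp. The pooled list had both, with signals of 13.02 and 6.73. For mir-80 the nearest replicate 1 summit was that of its neighbour mir-238, at -2167 bp.

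**Figure D4:**
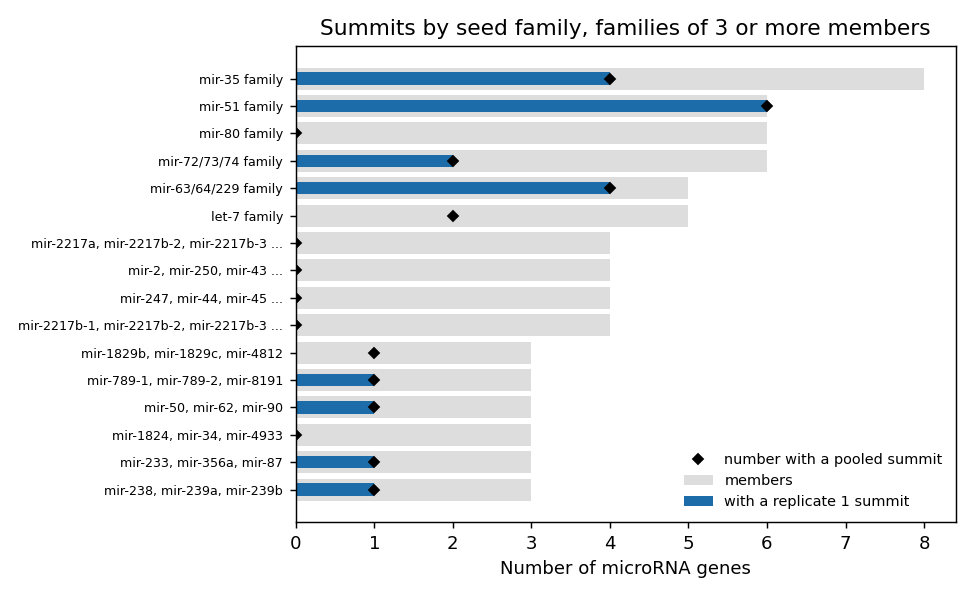
Number of microRNA genes in each seed family of at least 3 members (grey), of these with a replicate 1 summit (blue), and number with a pooled summit (black diamonds). The mir-51 family had 6 of 6 and the mir-35 family 4 of 8, and a gene with mature arms of different seeds can count in more than 1 family.

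The let-7 family, with the seed GAGGUAG, had no replicate 1 or replicate 2 summit at any of its 5 genes. Pooled summits lay in the windows of mir-241, at -847 bp with a signal of 2.64 and a q of 0.562, and of mir-795, at -776 bp with a signal of 3.36 and a q of 0.242. For let-7 itself the nearest replicate 1 summit lay at -1847 bp, outside the window, with a signal of 16.1 and rank 38. It was stronger than any peak inside a microRNA window, and in the pooled list it had a signal of 14.9 and rank 48. The annotated start of let-7 is not that of a hairpin: the mature RNA begins 1066 bp downstream of it, outside the window, and 2913 bp from this summit. The summit lay in the promoter window of C05G5.2, a protein-coding gene on the other side, so this peak cannot be assigned to let-7 or to that gene from position alone.

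For the timing microRNA lin-4, in an intron of F59G1.4, the nearest replicate 1 summit was at 2062 bp with a signal of 2.78. For mir-34, a gene of the stress response, it was at -2676 bp with a signal of 2.06, and for lsy-6, which sets the left-right asymmetry of taste neurons, at 7844 bp. The neuronal mir-124 had its nearest replicate 1 summit at -8099 bp with a signal of 3.21, inside the promoter window of its host trpa-1. The heterochronic genes mir-48 and mir-84 had theirs at 8562 and 19394 bp. Together with mir-1, mir-57, mir-71, mir-241, mir-35 to mir-42, mir-51 to mir-56, mir-58a, mir-80, mir-81 and mir-82, these made 29 well-known genes, picked by name. Of them 13 had a replicate 1 summit in the window, 2 a replicate 2 summit and 14 a pooled one, where all genes stood at 10.7%, 2.32% and 13.2%. Of the 13, however, 4 genes of the mir-35 run shared 1 peak and mir-54, mir-55 and mir-56 shared another, so the count does not rest on 13 separate loci. The names were also chosen with earlier results of these data known, and they include the whole mir-51 family. Their share is therefore not that of an unselected set of genes.

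The replicate 1 summits lay mostly upstream of the microRNA genes. Counting the strongest summit of each of the 50 genes, 41 (82%) were upstream, 24 of them within 500 bp and 17 farther up to 1000 bp, and 9 were at or downstream of the start. The median position was -294.5 bp. A window that extends 1000 bp upstream and 500 bp downstream favours the upstream side. In the same window the upstream share was 70.3% for all genes, 81.4% for protein-coding genes and 52.9% for tRNA genes. The share within 500 bp upstream was 48% for microRNA genes, 57.01% for protein-coding genes, 49.5% for snoRNA genes and 45.1% for all genes. The total upstream share of microRNA genes was thus near that of protein-coding genes, and the share close to the start was lower and nearer to that of snoRNA and all genes. These shares count genes and not peaks, so a peak shared by a run is counted again, farther upstream, at each later hairpin. Single peaks were counted at -536 to -861 bp for mir-35 to mir-38 and at -273 to -929 bp for the mir-229 run. Another was counted at -389 to -696 bp for mir-54, mir-55 and mir-56. The lower share close to the start is in part due to this counting. The median distance from a microRNA gene start to the nearest replicate 1 summit was 3929 bp, against 8134 bp for all genes and 6997 bp for protein-coding genes. In replicate 2 the medians were 23380 bp, 23490 bp and 20750 bp, so the microRNA genes were not closer to a summit than protein-coding genes there.

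**Figure D5:**
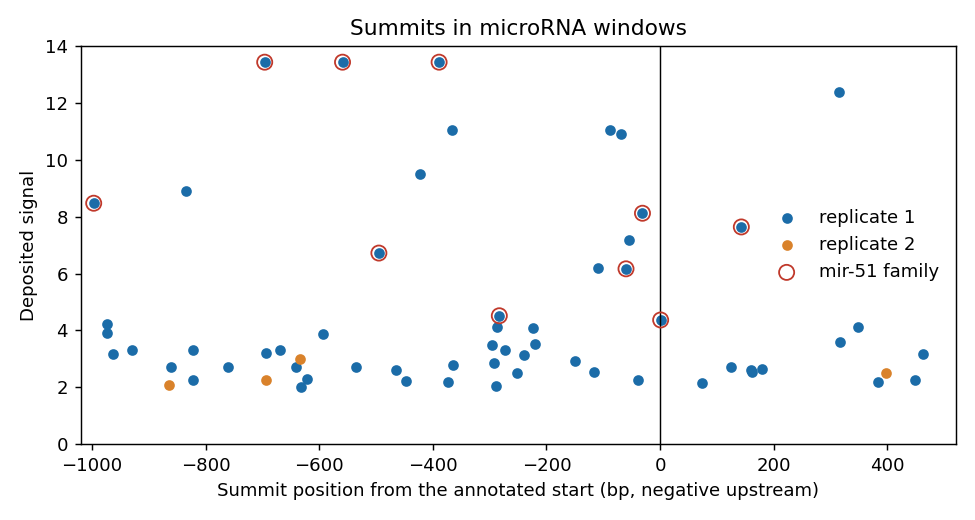
Position of each summit in a microRNA window relative to the annotated start (bp, negative upstream) against its deposited signal, for replicate 1 and replicate 2, with the mir-51 family ringed; a summit shared by several genes appears once for each. Signals above 10 occur both upstream and, for mir-58a, at 315 bp downstream, and the replicate 2 points lie between 2.09 and 3.01.

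Of the 49 replicate 1 summits in microRNA windows, 27 were intergenic, 14 in an intron of a protein-coding gene, 5 in an untranslated exon and 3 in a coding exon. By position of the microRNA gene, 20 of 155 intergenic genes had a replicate 1 summit (12.9%), 18 of 74 inside a protein-coding gene on the same strand (24.3%) and 12 of 32 inside one on the other strand (37.5%). Over all genes the replicate 1 share was 10.7% and over protein-coding genes 12.8%, so the intergenic microRNA genes stood close to protein-coding genes. In the pooled list the shares by position were 18.7%, 32.4% and 37.5% in the same order, against 13.2% of all genes and 15.8% of protein-coding genes. The group on the other strand includes 4 genes of the mir-35 run and 3 of the mir-54 run, which share 1 peak each. The same-strand group includes the 4 genes of the mir-229 run on 1 peak, and the intergenic group mir-73 and mir-74 on 1 peak.

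The 74 genes on the strand of a host lay in 68 distinct hosts, and 18 of those hosts (26.5%) had a replicate 1 summit in their own promoter window, where protein-coding genes as a whole stood at 12.8% and all genes at 10.7%. A summit lay at both the microRNA gene and the host start for 7 genes, at the microRNA gene alone for 11 and at the host start alone for 13. The 7 include mir-71, whose host ppfr-1 had a summit with a signal of 6.29 at its own start, 9962 bp from that of the microRNA, and mir-354 in rps-20. In 4 of the 7 (mir-253, mir-353, mir-354 and mir-789-1) both windows held the same peak, so that 3 genes (mir-71, mir-87 and mir-8207) had separate summits at the gene and at the host start. Those with a host summit alone include mir-2, also in ppfr-1, mir-124 in trpa-1, and mir-1828 in pash-1, whose product takes part in cutting microRNA hairpins and whose summit had a signal of 3.13. The hosts of mir-58a and of the mir-229 run had no replicate 1 summit at their starts, which lie 10814 bp from mir-58a and 20507 bp from mir-229.

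Genes in clusters of at least 2 members had a replicate 1 summit in 22 of 99 cases (22.2%) and single genes in 28 of 162 (17.3%), against 10.7% of all genes. The clustered cases are not independent. The genes mir-35 to mir-38 shared 1 peak, as did those of the mir-229 run. The same held for mir-54 to mir-56, for mir-73 and mir-74, and for mir-5592-1 and mir-5592-2. Genes with a name number under 1000 had a replicate 1 summit in 37 of 137 cases (27.0%), and those from 1000 upwards in 13 of 124 (10.5%). In replicate 2 the numbers were 3 (2.19%) and 1 (0.807%), against 2.32% of all genes. The replicate 1 share of the names from 1000 upwards was thus near the 10.7% of all genes. The names under 1000 include the runs of mir-35, mir-229, mir-54 and mir-73, which share 1 peak each. This split by name was chosen after the values were seen. By chromosome the share in replicate 1 ran from 10.7% on V and 12.3% on X to 24.2% on I and 33.3% on III. Protein-coding genes ran from 8.93% on V to 16.5% on III, so V was lowest and III highest for both kinds of gene. Of the 9 microRNA genes with a summit on III, however, 4 were the mir-229 run on 1 peak, so the place of III above I is uncertain. On X the protein-coding share was 14.4% in replicate 1, above that of microRNA genes, but in the pooled list microRNA genes stood at 24.7% and protein-coding genes at 17.9%.

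The PHA-4 consensus TRTTKRY, 7 bases long and sought on both strands, occurred within 100 bp of 21 of the 49 replicate 1 summits in microRNA windows, 42.9% (28.8 to 57.8%). In equally wide windows whose centres were 500 bp from the summit on either side, 48.0% had it. These flanks were not limited to sequence without peaks. At mir-52 the summits at -997 and -495 bp, in replicate 1 and the pooled list, each lie in a flank of the other. Over the whole replicate 1 list the share was 57.4%, against 47.0% in its flanks, and windows of this width around all nuclear gene starts held it in 49.4%. Among the strongest 1000 peaks, 4 of 13 summits in microRNA windows had it (30.8%, 9.09 to 61.4%), against 64.9% of the list. Around the microRNA gene starts themselves it was 41.0%. Within 50 bp, 30.6% of the 49 summits and 29.6% of their flanks had it, and among the 13 strong summits 30.8% against 26.9%. In replicate 1 the microRNA summits and their flanks thus differed by a few percentage points in either direction depending on the width, apart from the 13 strong summits, where the flanks at 100 bp stood at 42.3%. For these 13 the interval lay below the share of the list at 100 bp, but at 50 bp it took in the list's 43.9%. The interval treats the summits as independent. Those of ranks 317, 416, 578 and 698, however, all lay in the window of mir-52, and of them only that of rank 317 had a match. The gap at 100 bp is therefore uncertain.

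In the pooled list 47.6% of microRNA summits and 45.2% of their flanks had the consensus within 100 bp, against 54.4% of the list, and within 50 bp it was 23.8% of summits and 31.0% of flanks. Among the strongest 1000 pooled peaks it was 42.9% (17.7 to 71.1%), an interval that takes in the list's 64.6%. In replicate 2 it was 2 of 4. Of the 8 mir-51 family peaks, 3 had a match within 100 bp. The sequences printed above show the form TGTTGAC at -64 and 34 bp from the outermost mir-52 summit and at 34 bp from the summit of mir-73 and mir-74, the form TGTTGGT at -12 bp from that of mir-51, and TATTTAT at 14 bp from that of mir-5595. The form TGTTGAC was within 100 bp of 6.33% of the strongest 1000 replicate 1 summits and of 2.04% of gene starts, TGTTGGT of 2.92% and 2.51%, and TATTTAT of 7.64% and 11.2%. For the 49 replicate 1 summits in microRNA windows these forms stood at 4.08%, 4.08% and 6.12%. Over all replicate 1 summits they stood at 3.95%, 3.27% and 8.17%. The summits of mir-54, mir-55 and mir-56 and of mir-58a had no match, and the peak beyond the let-7 window had the form TGTTTAC at 53 bp. A match is a string of letters and not a measured site, and its absence says only that these letters are not in this window.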

How the data were processed

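PHA-4 ChIP-seq peak lists of 2 biological replicates, of the replicates pooled and of the final IDR selection were used in ce11. The authors deposited for each peak a signal value and a −log10 q-value; per the deposited file listing, peaks were called against 2 control alignments. The aligner, peak caller, versions and signal scaling are not stated in any source at hand. No read counts were available here, so depth is unknown, and an interval reflects only how many windows were counted. Lists in ce10 were not used.

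Summits were intersected with gene windows of Ensembl release 115 (WBcel235, the build of ce11) in Python 3.11.15 with scipy 1.17.1, and window counting was checked on simulated data. Coordinates are 1-based. Gene names carrying the prefix cel- were read without it, and let-7 was matched by its gene identifier. Mature sequences came from RefSeq for 260 of 261 genes. With 1 group there was no between-group test, and no chance test was made.

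Named were genes with summits of both replicates, the 15 strongest of replicate 1, up to 10 of replicate 2, and a list of well-known genes. Further names were picked with their values in view. The members, lists and rules were chosen with earlier results of these data known. Alternatives varied the window, overlap rule, peak set, q-value, merging and replicate.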

Additional observations from a re-analysis of the deposited data

How the results depend on the processing

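The count of 50 microRNA genes with a replicate 1 summit ran from 35 to 70 over the other windows (500 or 2000 bp upstream), peak overlap, a margin of 100 bp, a q of 0.05 or less and merged windows, and fell to 13 with the strongest 1000 peaks. The replicate 2 count of 4 was 1 with 500 bp upstream, 7 with peak overlap and 0 with the q limit. The pooled count of 65 was 14 with the strongest 1000 peaks and 18 with the q limit. The count of 1 in both replicates was 0 with the strongest 1000 peaks, with the q limit, and when the peaks themselves had to overlap. The count of 53 in either replicate was 35 with 500 bp upstream, 16 with the strongest 1000 peaks, and between 4 and 50 with 1 replicate left out, 4 being the count without replicate 1. Without summits in protein-coding promoter windows, an alternative chosen after seeing the data, the counts were 36, 3, 50, 1 and 38 in that order. Shares over all genes were computed only for the main window, with all peaks or the strongest 1000 of a list, and for both replicates. The counts under the other settings, and those in either replicate, have no background beside them. Whether the difference from all genes holds under those settings was not tested. The share of summits with the consensus was 30.6% within 50 bp and 30.8% among the strongest 1000 peaks. No paired analysis was possible because there is a single group. Depth is unknown and no replicate 2 peak reached a q of 0.05, so the lack of a replicate 2 summit does not show that binding was absent there, and each replicate 1 value rests on 1 library.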
